A study of Mus musculus with 8 samples.

Results

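The potassium channel genes of the mouse cornea and limbus were defined as every gene of the table whose symbol begins with Kcn, goes on with letters of its family and ends in a number. This rule, which uses no measured value, found 92 of the 23420 genes with a name. They comprise 30 voltage-gated pore-forming subunits (Kcna, Kcnb, Kcnc, Kcnd, Kcnh and Kcnq), 10 voltage-gated modifier subunits (Kcnf, Kcng, Kcns and Kcnv), 15 inward rectifiers (Kcnj), 14 K2P leak channels (Kcnk), 8 channels opened by calcium, sodium or pH (Kcnma, Kcnn, Kcnt and Kcnu) and 15 auxiliary subunits (Kcnab, Kcne, Kcnip and Kcnmb).

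Total RNA was sequenced from corneas and limbal rims, the ring between cornea and conjunctiva, of wild-type C57BL/6J mice at 8 weeks of age. The labels give no engineered allele and no treatment for either tissue. Limbal rims and corneal buttons of several eyes were each pooled before the RNA was extracted. The labels list 4 samples per tissue, numbered like the lanes of a sequencer, but the table holds 1 value per tissue, so each tissue is 1 library and the differences below have no replicate check. They compare the libraries. Intervals cover counting error only, because each tissue is 1 library. They may be too narrow even for that, because the table counts reads, not molecules, and copies of 1 molecule made by amplification are not independent.

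Potassium channels let potassium leave or enter a cell along its gradient and set its resting potential. Voltage-gated channels open when the membrane is depolarised, inward rectifiers pass current best near or below the resting potential, and K2P channels carry a leak at rest. In the corneal epithelium and endothelium, potassium channels return the potassium that the sodium pump brings in, which keeps ion and water transport going. Modifier subunits form no channel alone and change the channels they join, while auxiliary subunits bind the pore from inside or beside it.

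The pore of these channels is lined by a short conserved stretch, the potassium channel signature, which selects potassium over sodium. The DNA that encodes it was read from the GENCODE transcripts of build GRCm38 for genes that the results turn on. The 24 bases of the signature are in capitals and 6 bases on each side in lower case, all 5′ to 3′ on the coding strand.
Kcnh1, chr1:192337739-192337774, plus strand: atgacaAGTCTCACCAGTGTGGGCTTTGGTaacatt
Kcna1, chr6:126642222-126642257, minus strand: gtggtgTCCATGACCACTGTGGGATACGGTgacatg
Kcna2, chr3:107105209-107105244, plus strand: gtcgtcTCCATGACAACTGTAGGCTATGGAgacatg
Kcnc2, chr10:112456214-112456249, plus strand: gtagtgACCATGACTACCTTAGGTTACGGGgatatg
Kcnv1, chr15:45109283-45109318, minus strand: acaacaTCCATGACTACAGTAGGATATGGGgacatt
Kcns1, chr2:164164848-164164883, minus strand: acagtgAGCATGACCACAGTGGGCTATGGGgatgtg
Kcnk5, chr14:20144642-20144677, minus strand: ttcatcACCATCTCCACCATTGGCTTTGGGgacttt

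These 7 stretches all lie in coding exons, and the modifier subunits Kcnv1 and Kcns1 hold the signature although they form no channel alone. Of the 77 pore-forming and modifier members, 71 (92.2%) held the signature in their coding sequence, against 0 of the 15 auxiliary members and 117 of 21783 other protein-coding genes (0.537%). The 6 without a match were Kcnj8, Kcnj11, Kcnk1, Kcnk6, Kcnk7 and Kcnk13. The search used 1 fixed pattern of amino acids, and a missing match says only that these letters were not found. Of the 14 K2P channels, which are named for 2 pore domains, 10 held 1 match and 0 held 2. The Kcnk5 stretch is therefore the 1 match found, not its whole filter.

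The tissue labels were checked against marker genes. Krt12, the keratin of the corneal epithelium, had 1137735 cornea and 233324 limbus reads. Of the 5 corneal epithelium genes, 3 were at least 2-fold higher in the cornea, and Krt5 and Pax6 fell short of that. All 5 limbal and conjunctival keratins were at least 2-fold higher in the limbus. Most marker lists of other cell types leaned towards the limbus, but the 3 keratocyte genes did not. Kera had 12119 cornea and 1423 limbus reads, a 7.97-fold difference. Lum was within counting error, and Dcn was 1.555-fold higher in the limbus. Among all 15571 genes with more than 3 reads in a library, 19.1% passed 2-fold and counting error towards the limbus and 8.26% towards the cornea. All 7 skeletal muscle genes, all 6 melanocyte genes, all 5 photoreceptor genes, 9 of 10 smooth muscle and pericyte genes, 5 of 6 vessel endothelium genes, 5 of 6 Schwann cell genes, all 4 mast cell genes, 3 of 4 corneal endothelium genes, 2 of 4 neuronal genes and 2 of 4 leukocyte genes were at least 2-fold higher in the limbus. Their part in the results below was not tested beyond the values given. In pooled tissue, more cells of a type and more RNA per cell cannot be told apart.

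Potassium channel reads made up a larger share of the limbus library. They amounted to 3408 reads in the cornea, 130.6 RPM (reads per 1000000 reads on named genes, 95% exact interval 126.2 to 135), and to 5536 limbus reads, 261.4 RPM (254.5 to 268.3). RPM scales to the total reads on named genes. The ratios below use normalized reads, and each log2 ratio of limbus over cornea would be 0.206 higher on the RPM scale. At least 1 read was found for 61 members in the cornea and 78 in the limbus.

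The members were unevenly covered. Both libraries had 0 reads for 12 members, which were undetected: Kcna3, Kcna4, Kcnd2, Kcnh7, Kcnj3, Kcnj4, Kcnk9, Kcnk15, Kcnk16, Kcnk18, Kcnmb3 and Kcns2. A count of 0 allows up to 3 reads in a library. Another 14 had 1 to 3 reads at most, which gives no fold. The remaining 66 had more than 3 reads in a library and were compared.

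Of these 66 members, 31 were at least 2-fold higher in the limbus and 8 at least 2-fold higher in the cornea, with a counting interval of the ratio that left out equality. That is 47.0% and 12.1%, where 19.1% and 8.26% of all 15571 genes so compared were called. The difference exceeded counting error towards the limbus in 34 members (background 35.5%) and towards the cornea in 8 (background 36.7%), and lay within it in 24. In either direction that is 42 members of 66, where 72.2% of all genes passed. Of the 66, 27 passed the filter through the limbus library alone, with 3 cornea reads or fewer, and 2 through the cornea library alone. Of all 15571 genes, 1418 and 292 did. Counts and medians over the members therefore lean towards the limbus by construction, and more so than those over all genes.

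**Figure D1:**
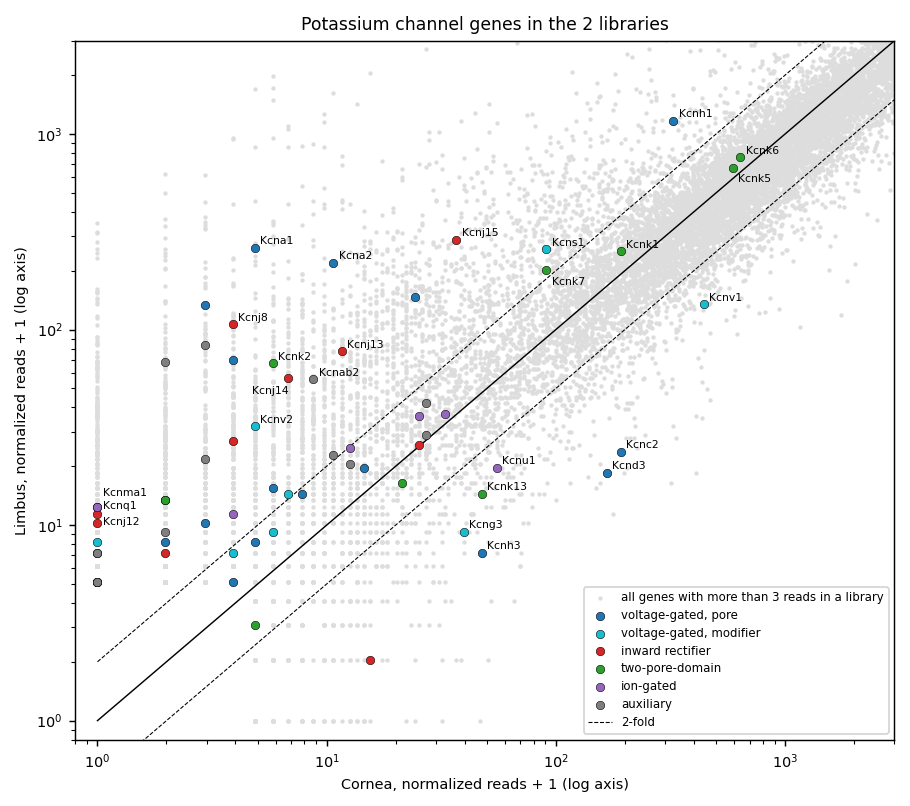
Normalized reads plus 1 in the cornea (horizontal, log axis) and the limbus (vertical, log axis). The 66 members with more than 3 reads in a library are coloured by family, over all genes so compared in grey. The most abundant of these 15571 genes lie beyond the ends of the axes and are not shown. The solid line marks equality and the dashed lines 2-fold. Counted with their intervals and without the added read, 31 members were called towards the limbus and 8 towards the cornea.

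The share called varied with depth. Among the 43 members with 4 to 49 reads in the deeper library, 15 (34.9%) were called towards the limbus, near the 38.3% of all genes at that depth, and 4 (9.30%) towards the cornea, beside 6.13%. Among the 14 members with 50 to 199 reads, 11 (78.6%) were called towards the limbus and 3 (21.4%) towards the cornea, where the background was 37.6% and 10.1%. Of the 9 members with 200 reads or more, 5 (55.6%) were called towards the limbus and 1 (11.1%) towards the cornea, beside 8.73% and 8.50% of all genes. The members' share towards the limbus was above the background only in the classes of 50 reads or more. The classes do not make depth independent of direction, because a high limbus count alone can place a gene in its class and also give the call. In the class of 50 to 199 reads, Kcna6, Kcne4, Kcnip3, Kcnj8 and Kcnq5 had 3 cornea reads or fewer. The median log2 ratio of limbus over cornea, with 1 normalized read added to each value, was 1.41 for members and 1.14 for all genes in the class of 4 to 49 reads, 2.90 and 0.38 in the middle class, and 1.5 and −0.13 at 200 reads or more. Over all depths together the members' median was 1.83, and 1.16 with those at 0 in the cornea set to their ratio against a floor of 3 cornea reads.

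**Figure D2:**
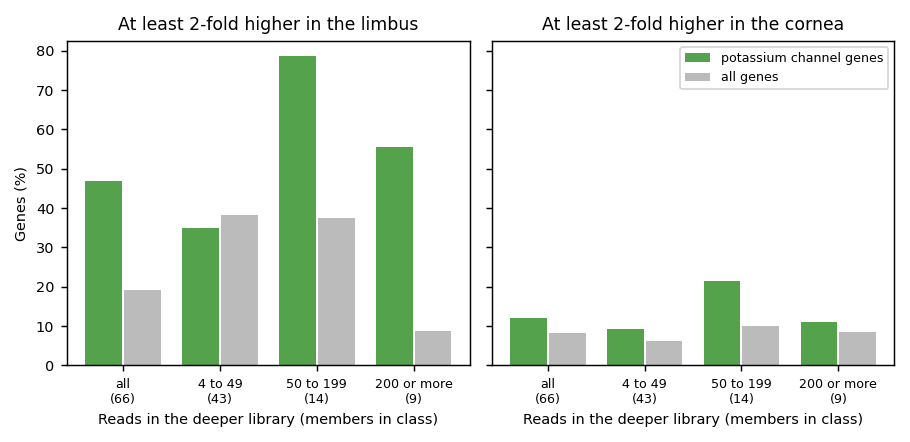
Percentage of potassium channel genes (green) and of all genes (grey) that were at least 2-fold higher in the limbus (left) or the cornea (right), for all compared genes and by the reads in the deeper library. Members in each class are given in parentheses. In the class of 4 to 49 reads the green bar for the limbus, 34.9%, is close to the grey one, 38.3%.

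The families differed in where their reads lay. Voltage-gated pore-forming subunits had 31.99 RPM in the cornea against 98.53 in the limbus, inward rectifiers 3.907 against 27.66, and auxiliary subunits 3.486 against 16.62. K2P channels had 62.82 and 90.88 RPM. Modifier subunits had 23.41 and 21.2 RPM (21.59 to 25.34 and 19.28 to 23.25), and the ion-gated channels 4.942 and 6.468 (4.126 to 5.872 and 5.43 to 7.646). The intervals of each of these families overlap, which does not settle whether the sums differ beyond counting error. Towards the limbus, 10 of 20 compared pore-forming voltage-gated genes, 3 of 8 modifiers, 7 of 10 inward rectifiers, 3 of 9 K2P channels, 1 of 7 ion-gated channels and 7 of 12 auxiliary subunits were called, and towards the cornea 3, 2, 1, 1, 1 and 0. These counts are small and stand beside 19.1% and 8.26% of all genes, or 38.3% and 6.13% of genes with 4 to 49 reads.

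**Figure D3:**
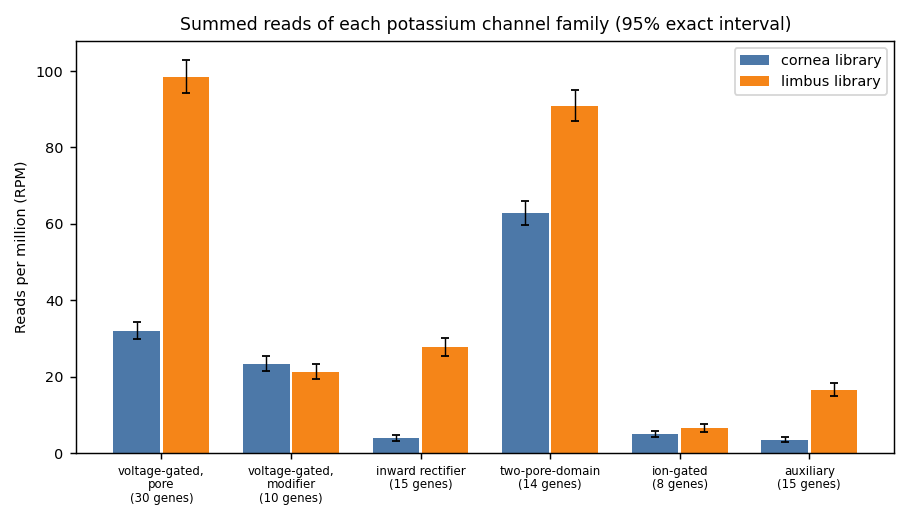
Summed RPM of each family in the cornea (blue) and limbus (orange) library, with 95% exact intervals as error bars. Voltage-gated pore-forming subunits and K2P leak channels hold most reads, and the inward rectifiers have 3.907 RPM in the cornea and 27.66 in the limbus.

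Of the Kcna genes, Kcna1 and Kcna2 encode delayed rectifiers that, in myelinated axons, sit beside the nodes. Kcna1 had 4 cornea and 253 limbus reads, 67.6-fold more in normalized reads (log2 ratio 6.08, interval 4.70 to 7.97). Kcna2 had 10 and 211 reads (log2 ratio 4.49, 3.59 to 5.58). Kcna6, chosen after its value was seen because it had only 2 cornea reads, had 128 in the limbus (6.10, 4.21 to 9.16), and 40.4% of its exon sequence overlaps the antisense gene Gm26673. The sources used here do not say whether counting used the strand. Kcna1, Kcna5 and Kcna6 lie next to each other on chromosome 6 between 126532551 and 126740674. Kcna5, the cluster's other member, had 5 and 14 reads. On chromosome 3, Kcna3 at 0 and Kcna10 at 0 and 1 read flank Kcna2, so the neighbours of Kcna2 were at or near 0 in both libraries.

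Kcnab2, the auxiliary subunit that binds Kcna channels in axons, had 8 cornea and 53 limbus reads (2.82, 1.74 to 4.11). The Schwann cell gene Sox10, with 2 and 115 reads, moved the same way, and so did the neuronal genes Snap25, with 13 and 59, and Syt1, with 9 and 53. The neuronal genes Rbfox3 and Elavl4 were at 0 in the cornea and had 2 limbus reads each. Over the whole lists, normalized reads summed to 4621 and 7923 for the 6 Schwann cell genes, most of them from Mbp, and to 21.28 and 119.9 for the 4 neuronal genes. The part of these cells in the Kcna and Kcnab2 values was not tested.

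Among the remaining pore-forming voltage-gated genes, Kcnh1 was the most abundant, and Kcnc2, Kcnd3 and Kcnh3 were higher in the cornea. Kcnh1, an ether-a-go-go channel, had 335 cornea and 1127 limbus reads (1.85, 1.67 to 2.03), a 3.595-fold difference. It overlaps Hhat on the opposite strand, but shares no exon base with it. Kcnq5, an M-current channel chosen after its value was seen, had 3 and 67 reads (4.58, 2.97 to 6.89).

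The cornea held more of 3 channels that are best known from excitable cells. Kcnc2, a fast delayed rectifier, had 197 cornea and 22 limbus reads (−3.07, −3.77 to −2.43), which is 8.38-fold higher in the cornea. Kcnd3, an A-type channel that inactivates quickly, had 171 and 17 reads (−3.23, −4.05 to −2.51). Kcnh3 had 48 and 6 reads (−2.90, −4.42 to −1.68). Of the partners of the Kcnd family, Kcnip2 had 27 reads in both libraries, Kcnip1 had 0 and 6, Kcnip3 had 2 and 80, Kcnip4 had 0 and 4, Dpp6 had 0 and 3, and Dpp10 was at 0. Kcnip1 and Kcnip3 were called towards the limbus.

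Kcnq1, which forms the slow cardiac current with Kcne1, had 0 cornea and 11 limbus reads. Against a floor of 3 cornea reads that is 3.92-fold higher (log2 ratio 1.97, interval from 1.42 upwards). The antisense RNA Kcnq1ot1 shares 121 exon bases with Kcnq1 and had 113 and 55 reads, the opposite order. Kcne1 had 27 and 40 reads, within counting error with the table's size factors and beyond it towards the limbus when scaled to total reads.

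Modifier subunits went both ways. Kcnv1 had 457 cornea and 129 limbus reads (−1.73, −2.02 to −1.44) and was 3.32-fold higher in the cornea, the deepest member of that direction. Kcng3 had 40 and 8 reads (−2.23, −3.53 to −1.11), also higher in the cornea. Kcns1 had 93 and 248 reads (1.51, 1.16 to 1.87) and was higher in the limbus.

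Kcnv2, a modifier subunit known from photoreceptors, had 4 and 30 reads (3.003, 1.498 to 4.97). The photoreceptor gene Gnat1, with 160 and 1506 reads, moved the same way, and the 5 photoreceptor genes summed to 578.5 and 5796 normalized reads. Their part in the Kcnv2 value was not tested.

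Inward rectifiers were rare in the cornea, with 102 reads over the family against 586 in the limbus. Kcnj15 was the deepest, with 37 and 277 reads (log2 ratio 3, 2.502 to 3.54), and 8-fold higher in the limbus. Kcnj13, a channel of the retinal pigment epithelium, had 11 and 74 reads (2.85, 1.92 to 3.91), and shares no exon base with Gigyf2, which overlaps it. Kcnj14 had 6 and 54 reads (3.27, 2.05 to 4.77).

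Kcnj8 and Abcc9 encode the pore and the sulfonylurea receptor of the ATP-sensitive channel of vessel smooth muscle and pericytes. Kcnj8 had 3 cornea and 102 limbus reads (5.18, 3.595 to 7.48), and Abcc9, which the symbol rule does not take in, had 7 and 172 (4.71, 3.64 to 6.05). Of the smooth muscle and pericyte markers, Des and Higd1b were at 0 in the cornea and Rgs5 had 5 and 348 reads. All 10 summed to 5939 and 6861 normalized reads, most of them from Notch3, which had 5755 and 3349 reads. Their part in the Kcnj8 value was not tested.

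The other rectifiers to be named had few reads. Kcnj12 had 0 and 10 reads, 3.56-fold higher in the limbus against a floor of 3 cornea reads (log2 ratio 1.83, interval from 1.26 upwards). Kcnj10, a glial channel chosen after its value was seen, had 3 and 25 (3.15, 1.44 to 5.53). Kcnj1, chosen in the same way, had 15 and 1 and was the only rectifier called towards the cornea (−3.81, −9.21 to −1.11).

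The deepest K2P channels had nearly equal reads in both libraries. Kcnk5, which opens in alkaline surroundings, had 611 cornea and 649 limbus reads (0.18, 0.02 to 0.34). Kcnk6 had 659 and 734 (0.25, 0.10 to 0.41), and Kcnk1 had 198 and 242 (0.39, 0.11 to 0.66). Each exceeded counting error by a little and none reached 2-fold. Kcnk7, which gives no current alone, had 93 and 193 reads (1.15, 0.78 to 1.52). Kcnk2, a channel opened by membrane stretch, had 5 and 64 (3.77, 2.48 to 5.44), and Kcnk13 had 48 and 13 and was higher in the cornea (−1.79, −2.80 to −0.88).

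In RPM per kilobase of exon, Kcnk5 led in both libraries, with a level of 6.9 in the cornea and 9.03 in the other library. In the cornea Kcnk6 at 6.18, Kcnv1 at 3.99, Kcnk1 at 3.39 and Kcnk7 at 2.45 followed. In the limbus Kcnk6 at 8.49, Kcnh1 at 7.35, Kcnk7 at 6.26, Kcnk1 at 5.11 and Kcns1 at 4.32 followed. Behind Kcnk5 and Kcnk6, the next gene was thus Kcnv1 in the cornea and Kcnh1 in the limbus. These levels are scaled to total reads. Their log2 ratios of limbus over cornea are therefore 0.206 higher than the ratios of normalized reads given above.

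**Figure D4:**
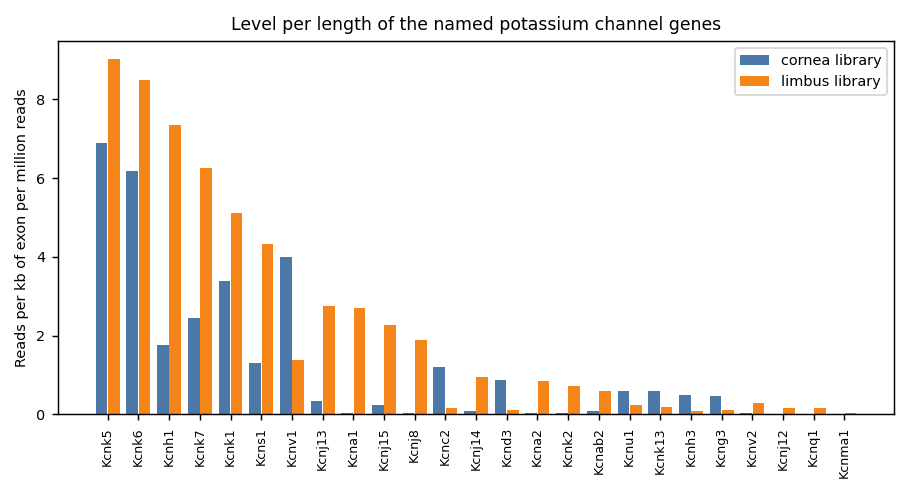
Level of 25 of the 26 genes that the naming rule took in, in RPM per kilobase of exon, in the cornea (blue) and limbus (orange) library, 1 library each and so with no error bar. Kcnk5 and Kcnk6 are highest in both, and Kcnv1, at 3.99 and 1.39, is the tallest gene with more in the cornea.

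The channels gated by ions were low, and 5 of the 7 compared were within counting error. Kcnma1, the large-conductance calcium-activated channel, had 0 cornea and 11 limbus reads, at least 3.92-fold higher. Its partner Lrrc26, a gamma subunit, was far deeper, with 1016 and 2271 reads (1.26, 1.15 to 1.36). Kcnu1, a channel of sperm, had 56 and 18 reads (−1.54, −2.40 to −0.75) and was higher in the cornea. The 4 Kcnn genes, small- and intermediate-conductance calcium-activated channels, summed to 73 and 102 reads, and all 4 were within counting error. Scaled to total reads, Kcnn2 and Kcnn3 passed it towards the limbus.

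Of the 12 compared auxiliary subunits, 7 were called towards the limbus and 0 towards the cornea. Of all genes, 19.1% and 8.26% were called, or 38.3% and 6.13% of genes with 4 to 49 reads. Among the 7, Kcnab1, Kcne3, Kcne4, Kcnip1 and Kcnip3 had 3 cornea reads or fewer. They passed the filter through the limbus library alone, so the count leans towards the limbus by construction. Besides Kcnab2, Kcne4 had 1 and 65 reads (6.12, 3.59 to 11.44) and Kcnip3, which binds calcium and Kcnd channels, had 2 and 80 (5.42, 3.52 to 8.49), both chosen after their values were seen.

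**Figure D5:**
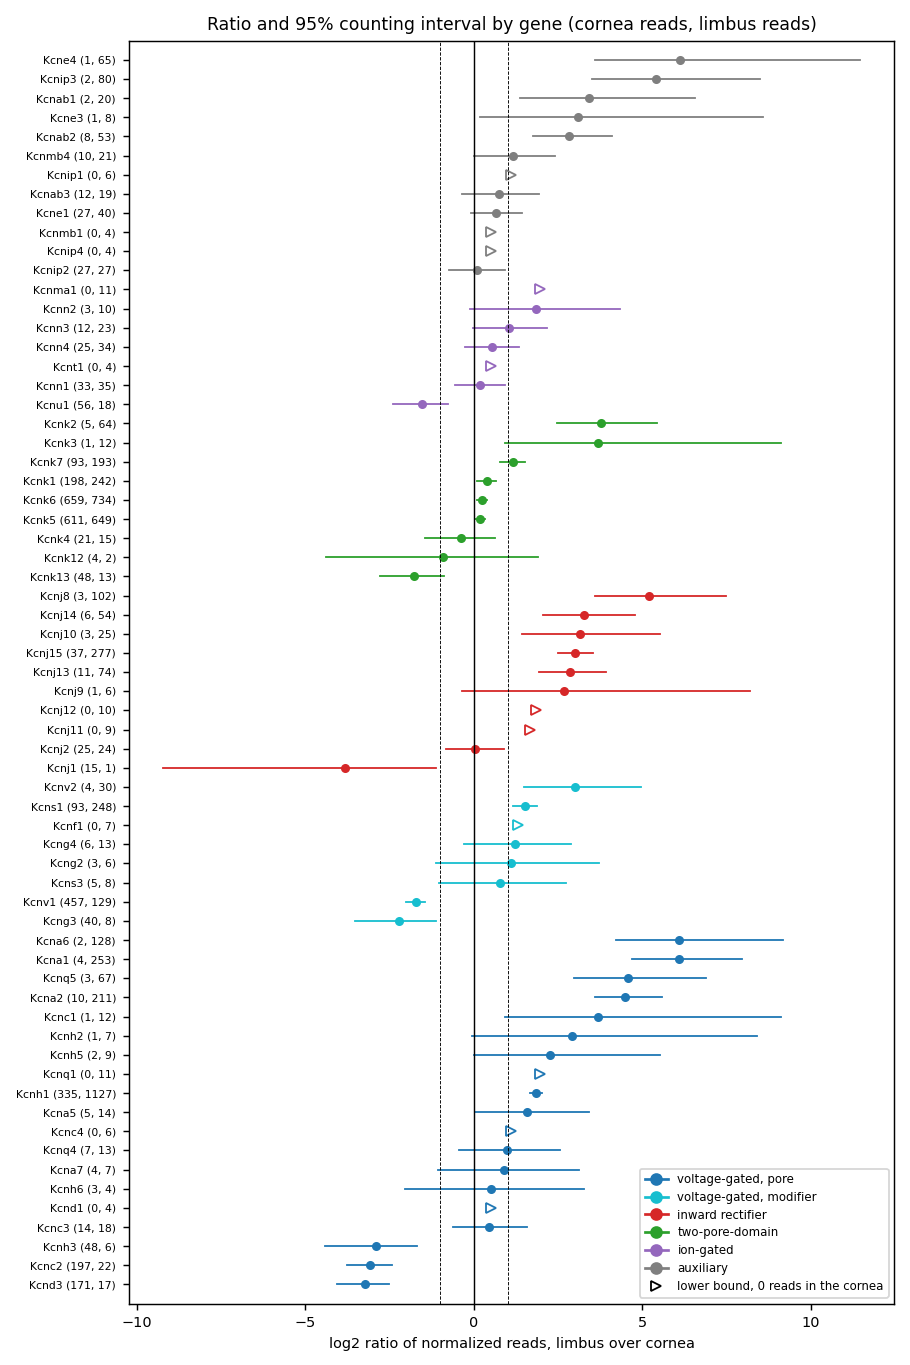
Log2 ratio of normalized reads, limbus over cornea, with its 95% counting interval for 65 of the 66 compared members, grouped by family, with cornea and limbus reads in parentheses. Open triangles are lower bounds for members with 0 reads in the cornea, and dashed lines mark 2-fold. Of all 66 compared members, 56 were on the limbal side, and the intervals are narrowest for Kcnk5, Kcnk6 and Kcnh1.

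Genes that work with potassium channels were taken from a list of 30, of which 22 had more than 3 reads in a library. Towards the limbus 6 were called and towards the cornea 3, where 19.1% and 8.26% of all genes were called. The sodium-potassium-chloride cotransporter Slc12a2, which loads cells with chloride, had 14579 cornea and 7345 limbus reads (−0.89, −0.93 to −0.85). The potassium-chloride cotransporter Slc12a7 had 133 and 523 reads (2.07, 1.79 to 2.36). Of the kinases that control them, Wnk2 and Wnk4 were higher in the cornea, with 1552 and 570 reads and with 1957 and 691 reads, and Stk39 was higher in the limbus, with 88 and 451.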

How the data were processed

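The study pooled tissue before extraction, prepared stranded total RNA libraries and used CLC Genomics Workbench 20 for mapping, with build GRCm38 (mm10), and names the trimmed mean of M-values as its normalization. The authors deposited, per gene, the mean normalized signal of both libraries, a shrunken log2 fold change, its standard error, and p-values with adjusted p-values. The authors' p-values were not used, and the log2 fold change and its standard error served only to find the reads and are not printed. A note in the table gives their direction.

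Of 40904 rows, 17484 name no gene and were left out. Every mean could be split into whole reads of 2 libraries, where 109 cornea reads weigh the same as 102 limbus reads. For 6143 genes the mean fits 1 pair of reads, and for 11299, including 15 members, it fits more. The pair was taken whose shrunken fold change and standard error, from a negative binomial model with a normal prior, came nearest to the deposited log2 values. Read numbers are therefore derived values. Where only 1 pair is possible and nothing was chosen, the model, its dispersion set by the standard error, missed the deposited values by at most 7.68e-05. Among members with several pairs, the next best pair missed by at least 0.000744. On simulated data made with the same model, so that only the solving step was tested, all 10889 genes with several pairs were recovered. With disturbances that raised the median misfit to 3.12e-05, above the 9.81e-06 of the deposited table, 10887 were.

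The libraries had 26104317 (cornea) and 21182025 (limbus) reads on named genes. Ratios are of normalized reads with 95% intervals from the limbal share (exact, Clopper-Pearson). RPM values, also per kilobase, are scaled to the total reads on named genes instead. Genes with more than 3 reads in a library were compared. A gene was called at 2-fold or more with an interval leaving out equality. No test across replicates was possible. Genes were named by rule: the 12 highest levels per length, the 10 largest and 10 smallest ratios among members with more than 3 reads in both libraries and beyond counting error, and members with 0 reads in one library and at least 10 in the other. Some items that these rules took in are not reported here. Exon lengths are from GENCODE M21. Members and lists were chosen with earlier results of these data known. Python 3.11.15, numpy 2.4.6 and scipy 1.17.1 were used.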

Additional observations from a re-analysis of the deposited data

How the results depend on the processing

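The 39 members called at 2-fold fell to 24 (19 limbus, 5 cornea) at 4-fold and to 12 (9 and 3) where a mean of at least 50 normalized reads was required. The 42 members beyond counting error fell to 15 under the latter filter, which left 15 members. The median log2 ratio of 1.83 became 1.03 with a mean of at least 10 and 0.9327 with a pseudocount of 5. Counting the pore-forming and modifier subunits without the auxiliary ones, an alternative chosen after seeing the data, gave 244.7 RPM in the limbus. Each log2 ratio was higher by 0.206 when scaled to total reads and by 0.0173 with trimmed means of M-values, and 84.8% of members lay on the limbal side under each scaling. Scaling to total reads took the members beyond counting error towards the limbus from 34 to 39, adding Kcne1, Kcnh2, Kcnh5, Kcnn2 and Kcnn3, and those called at 2-fold from 31 to 35. Of the values of the 26 named genes, 75 stayed within their interval and 3 moved, those of Kcnh1 (2.05), Kcnk5 (0.39) and Kcnk6 (0.46) under scaling to total reads. None reversed. Kcnj12, Kcnma1 and Kcnq1 have intervals with no upper end, so no upward shift of theirs could count as moved. With a pseudocount of 1, Kcnj12 went from 1.83 to 3.50, and Kcnma1 and Kcnq1 from 1.97 to 3.63. No paired analysis was possible because the table holds 1 value per tissue, and no replicate could be left out.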
